A study of Mus musculus with 3 samples.

Results

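The cells described here are bone marrow cells chosen by their own counts of 6 genes, and they are called monocytes by that rule. A cell was counted as a Ccr2 Csf1r monocyte if it held at least 1 unique molecular identifier (UMI, one captured transcript) of Csf1r, at least 1 of Ccr2, at least 1 of Ms4a4c or Ms4a6c, at most 2 of Mpo and at most 1 of Siglech, among cells with 200 or more detected genes and at most 5% of their UMIs from mitochondrial genes. Of 31292 cells that passed the gene and mitochondrial limits, 494 met this rule: 210 of 10674 in the Control library, 147 of 10345 in the IR library and 137 of 10273 in the IR+CBD library. The values of the 6 genes were selected on, so their levels are a description, and so is every comparison of these cells with the rest of the marrow.

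Monocytes arise in the marrow from granulocyte-macrophage progenitors and depend on the receptor tyrosine kinase CSF1R. The classical kind carries the surface protein Ly6C and the chemokine receptor CCR2, which it needs to leave the marrow. It expresses the genes of fibronectin (Fn1), versican (Vcan), coagulation factor XIII (F13a1) and the chitinase-like protein Chil3. The non-classical, patrolling kind has lost most CCR2 and Ly6C, carries the fractalkine receptor CX3CR1 and angiotensin-converting enzyme (Ace), and needs the nuclear receptor NR4A1.

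The series holds 3 droplet libraries of femoral marrow from male C57BL/6 mice, taken on day 14. Control mice were not irradiated, IR mice received 6 Gy of cobalt-60 gamma rays and the solvent (soybean oil with DMSO), and IR+CBD mice received the same dose with 4 intraperitoneal injections of cannabidiol at 50 mg/kg, given before and after the irradiation. Each library pooled 3 mice, and its Lin-Kit+, Lin-Kit- and Lin+ sorts were remixed 5:4:1, so no share below is a share of whole marrow. Because there is 1 library per condition, no difference between conditions has a replicate check, no test was made, and every 95% interval covers counting error only. The comparisons IR over Control and IR+CBD over IR share the IR library, so a value that stands apart there moves both in opposite directions.

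Median UMIs per monocyte were 13914, 16536 and 12698 in Control, IR and IR+CBD, and the monocytes of a library together held 3416767, 2808847 and 2109537 UMIs. The median share of mitochondrial UMIs was 1.04%, 0.996% and 1.10%. Between 76 and 92 cell barcodes of a library occurred in another library, and 3 of the 494 monocytes carried such a barcode.

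The label was held against 25 monocyte genes, all of which had UMIs in each library. Csf1r stood at 149, 118 and 141 CPM in Control, IR and IR+CBD, where CPM is UMIs of a gene per 1e+06 UMIs summed over the monocytes of a library. Ccr2 stood at 863, 734 and 675 CPM, Ms4a4c at 379, 472 and 313 CPM, and Ms4a6c, its neighbour in the same membrane protein family, at 1224, 1181 and 1031 CPM. Lyz2, the macrophage lysozyme, which the rule did not use, stood at 14780, 11828 and 12433 CPM. Irf8, a transcription factor of the lineage that was also outside the rule, stood at 312, 338 and 409 CPM. Neither was set beside other classes, so these levels alone do not mark the cells as monocytes. The 25 genes summed to 27820, 25282 and 24455 CPM.

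Markers of other cells were present and uneven. Neutrophil genes (11 genes, such as S100a8, S100a9 and Retnlg, none at 0) summed to 10472, 7437 and 3413 CPM, and a single cell held 22.01%, 36.2% and 63.8% of those UMIs. In B-lineage cells, which should lack them, the same genes summed to 11851, 10465 and 14669 CPM. Erythroid genes (10, none at 0) summed to 479, 806 and 721 CPM, and B-lineage genes (10, none at 0) to 500, 483 and 696 CPM. The T and NK cell list summed to 26.9, 17.1 and 64.5 CPM, with 4, 4 and 1 of 9 genes at 0, and megakaryocyte genes to 36.3, 1.42 and 2.37 CPM, with 3, 4 and 3 of 6 at 0. Macrophage genes summed to 73.5, 57.7 and 60.7 CPM with 5, 8 and 8 of 14 at 0, and C1qa, Mertk, Cd5l and Timd4 had no UMI in any monocyte. Dendritic cell genes summed to 126, 99.3 and 129 CPM, and plasmacytoid dendritic cell genes to 159, 129 and 187 CPM. Progenitor genes summed to 917, 1117 and 887 CPM. Basophil and eosinophil genes (11.1, 4.98 and 7.58 CPM) and stromal genes (2.05, 2.14 and 0.948 CPM) were near 0. In all, 82 monocytes (30, 25 and 27) held 2 or more UMIs of any of 7 genes of other lineages (among them Cd79a, Cd79b, Cd3e, Nkg7, Car1 and Pf4), and the values that matter below are also given without them. Of the monocytes, 23, 17 and 16 were among the predicted doublets (Scrublet), which were kept. What part these cells have in the results was not tested.

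Cells at the edge of the rule were few for the Siglech limit and, inside the rule, for Ccr2, but many for the Csf1r and Mpo limits. Exactly 1 Csf1r UMI was held by 73, 54 and 58 monocytes, while 157, 101 and 113 cells met every other limit with none. Only 7, 3 and 3 monocytes had a single Ccr2 UMI, against 30, 27 and 14 cells that met the rest with none. At 2 Mpo UMIs stood 55, 26 and 22 monocytes, and at 3 stood 28, 12 and 11 excluded cells. Fn1 was found in 90.9%, 65.4% and 81.8% of the former and in 89.3%, 58.3% and 90.9% of the latter. Single UMIs of Siglech were held by 4, 3 and 3 monocytes, and 5, 1 and 1 cells were left out with 2.

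Cells that failed only for want of Ccr2 were looked at for the markers of patrolling monocytes, which carry little of it. Among these 30, 27 and 14 cells, Treml4, a receptor of patrolling monocytes, was found in 1, 12 and 2 cells, Ace in 1, 5 and 2, Cx3cr1 in 6, 13 and 5, and Fn1 in 1, 0 and 2. Among the monocytes themselves, Ace was found in 7, 5 and 4 cells and Treml4 in 8, 5 and 11. Both groups held cells with Flt3, the receptor of dendritic cell precursors: 16, 5 and 2 of the Ccr2-negative cells and 41, 21 and 31 of the monocytes.

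The genes that set the monocytes apart from all other kept cells were led by Vcan and Fn1, which belong to the classical kind. The rule required Ccr2, which that kind carries, so such genes were favoured by the choice of cells. Vcan was 91.1-fold and Fn1 86.8-fold higher in monocytes than in the other cells of the 3 libraries together, followed by Ifi207 (66.7-fold), an interferon-inducible DNA-sensing protein, Pid1 (53.8-fold) and the calcium-binding S100a4 (48.9-fold). Tgfbi (23.9-fold), Ahnak (23.8-fold), Naaa (20.6-fold), Lgals3 (18.3-fold, galectin-3), Ctss (15.5-fold, cathepsin S), Cd86 (15.5-fold, a costimulatory ligand), Mpeg1 (15.1-fold, perforin-2), F10 (13.9-fold, coagulation factor X), Ccl6 (13.5-fold) and Cd68 (13.3-fold) followed. Ms4a4c (32.0-fold) and Ccr2 (15.7-fold) stood in the same list because the rule required them. The gene behind Ensembl identifier ENSMUSG00000120878, for which the files give no symbol, was 66.8-fold higher.

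Monocytes made up 1.97% of the kept cells in Control (95% exact binomial interval 1.71 to 2.25), 1.42% of those in IR (1.20 to 1.67) and 1.33% in IR+CBD (1.12 to 1.57). The IR share was 0.722 of the Control share (0.586 to 0.890), the IR+CBD share 0.939 of the IR share (0.745 to 1.18), and the IR+CBD share 0.678 of the Control share (0.548 to 0.839). Control was thus the high library, and the 2 irradiated libraries lay within each other's intervals. With cells holding Kit UMIs left out, since the sorts set their number, the shares were 3.08%, 2.13% and 1.96%. With every cell drawn down to 5000 UMIs before the rule was applied, they were 1.78%, 1.38% and 1.07%. Among kept cells with a Csf1r UMI alone as the denominator they were 12.1%, 9.53% and 11.2%, and there IR+CBD was not below IR, at 1.17 times its share (0.942 to 1.46), and was 0.927 of the Control share (0.757 to 1.14). Mpo-positive progenitors of the same lineage (Csf1r, F13a1 and at least 3 Mpo UMIs), which the rule excludes, made up 11.2%, 11.4% and 9.10% of kept cells, and their order among the libraries differed from that of the monocytes.

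**Figure D1:**
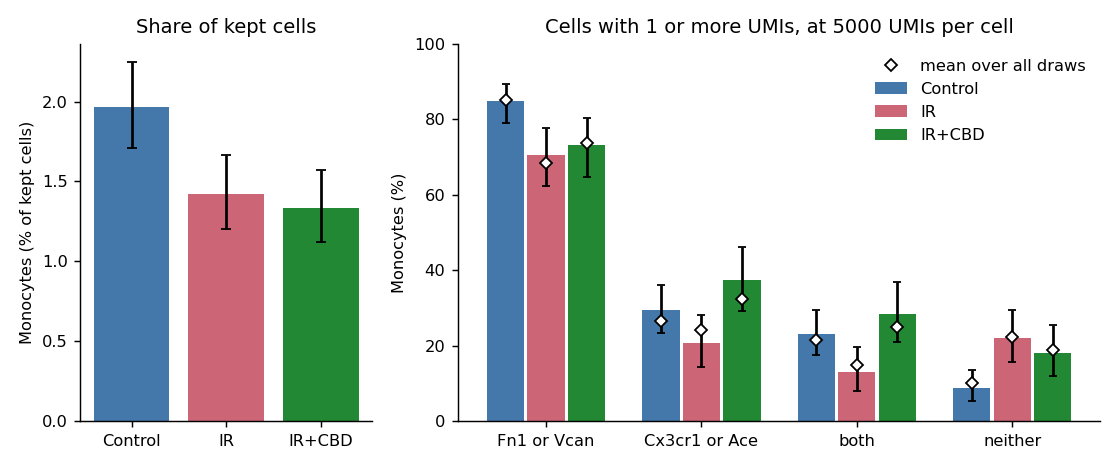
The left panel gives monocytes as a percentage of kept cells in each library, and the right panel the percentage of monocytes with 1 or more UMIs of Fn1 or Vcan, of Cx3cr1 or Ace, of both pairs or of neither, in 1 random draw of 5000 UMIs per cell. Bars are shares, error bars are 95% exact binomial intervals (counting error only) and diamonds are the mean over every possible draw. Control is highest in the left panel at 1.97%, and its Fn1 or Vcan share of 84.8% is the highest of the 3 libraries, while the Cx3cr1 or Ace bars move away from their diamonds.

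The Fn1/Vcan arm was compared first. The level of Fn1 was 704 CPM in Control, 446 CPM in IR and 618 CPM in IR+CBD, and the gene was detected in 90.5%, 75.5% and 79.6% of monocytes, against 1.81%, 0.939% and 0.875% of B-lineage cells (median depth 4000, 3839.5 and 3405 UMIs), which should lack it. The Fn1 level was lower in IR, at 0.635 of Control (95% interval 0.592 to 0.680), and IR+CBD lay between, at 1.38 times IR (1.28 to 1.496) and 0.878 of Control (0.820 to 0.940). Vcan stood at 261, 126 and 139 CPM, which put IR at 0.484 of Control (0.427 to 0.548) and IR+CBD at 1.10 times IR (0.938 to 1.29). For Vcan both irradiated libraries were low and the interval of their ratio includes 1. Mmp8, the neutrophil collagenase also made by classical monocytes, had the same order as Vcan (162, 80.8 and 88.2 CPM). Thbs1, thrombospondin-1, had that of Fn1 (88.7, 30.6 and 86.3 CPM), with IR+CBD 2.82 times IR (2.17 to 3.69).

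Over the 15 genes listed for this arm, 14 were measured, of which 5 were lower (Fn1, Vcan, Mmp8, Thbs1 and Cd93) and 2 higher (Ly6c2 and Plac8) by 1.5-fold in IR over Control, with a median log2 ratio of -0.22. Their summed level was 10800, 12510 and 9965 CPM, highest in IR, so the median and the sum differ in sign. In IR+CBD over IR 2 were higher (Thbs1 and Cd93) and 2 lower (Ly6c2 and Plac8), with a median of 0.06. Ly6c2, which encodes the Ly6C surface protein, measured 1605 CPM in Control, 2823 CPM in IR and 1648 CPM in IR+CBD. IR over Control gave a ratio of 1.76 (1.70 to 1.82) and IR+CBD over IR one of 0.584 (0.561 to 0.608), which were 1.75 and 0.607 without the 82 cells that held UMIs of other lineages. Reads of Ly6c2 and its near-identical neighbour Ly6c1 may be split between them, so the value is uncertain to that extent. Plac8 followed it closely, at 1971, 3465 and 2166 CPM. F13a1, the transglutaminase subunit of factor XIII, stood at 1370, 1252 and 1342 CPM, and S100a4 at 1433, 1207 and 1385 CPM. Chil3 stood at 1171, 1181 and 843 CPM, with IR+CBD at 0.714 of IR (0.674 to 0.757). The classical genes did not move as 1 block: Ly6c2 and Plac8 were highest in IR, and Fn1, Vcan and Thbs1 were lowest there.

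The Cx3cr1/Ace arm was thinly measured: of 22 listed genes, 11 reached 100 UMIs in IR over Control (median log2 ratio -0.05, Nr4a1 alone past 1.5-fold) and 10 in IR+CBD over IR (median 0.05, Nr4a1 and Bcl2 past it). Cx3cr1 stood at 63.2, 60.9 and 76.8 CPM, detected in 44.3%, 46.9% and 49.6% of monocytes against 3.75%, 2.72% and 2.48% of B-lineage cells, and IR+CBD was 1.26 times IR (1.01 to 1.57). Ace had 15, 12 and 10 UMIs in all. Treml4 had 10, 7 and 13 UMIs, too few to order the libraries. Nr4a1, which is also an immediate early gene, stood at 213, 127 and 203 CPM, which put IR at 0.596 of Control (0.523 to 0.677) and IR+CBD at 1.60 times IR (1.38 to 1.84). Spn, the sialophorin CD43 that patrolling monocytes carry at high level, stood at 53.6, 64.4 and 76.3 CPM and was 1.42 times higher in IR+CBD than in Control (1.15 to 1.77). A low Ace count does not allow Cx3cr1-positive cells of this rule to be called patrolling monocytes.

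Cells were then sorted by which arm they held, after each was drawn down to 5000 UMIs, which left 204, 146 and 134 cells. Fn1 or Vcan UMIs were found in 84.8% (79.1 to 89.4), 70.5% (62.4 to 77.8) and 73.1% (64.8 to 80.4) of monocytes. Cx3cr1 or Ace UMIs were found in 29.4% (23.3 to 36.2), 20.5% (14.3 to 28.02) and 37.3% (29.1 to 46.1) in that draw. This second order depends on the draw: averaged over every possible draw the shares were 26.5%, 24.02% and 32.4%, and without drawing down they were 45.7%, 47.6% and 51.1%. The Fn1 or Vcan share was 85.1%, 68.4% and 73.7% when averaged over every draw and 91.0%, 79.6% and 79.6% undrawn, with Control highest each time. Cells with neither pair made up 8.82%, 21.9% and 17.9%, or 9.98%, 22.3% and 18.9% averaged over every draw.

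Most cells with Cx3cr1 or Ace also held Fn1 or Vcan. In the single draw, 13, 11 and 12 cells had Cx3cr1 or Ace alone. Of these, 53.8%, 45.5% and 50% had UMIs of Clec9a, a lectin receptor of conventional dendritic cells and their precursors, and 53.8%, 54.5% and 41.7% had UMIs of Cd74, the MHC class II invariant chain. Flt3 was found in 53.8%, 9.09% and 33.3% of them, and Cd209a, another dendritic cell gene, in 30.8%, 0% and 25%. Treml4 was found in 15.4%, 9.09% and 16.7% of them, against 0%, 0% and 1.67% of cells with Fn1 or Vcan alone. Their Nr4a1 level was 538, 509 and 417 CPM, against 238, 164 and 223 CPM. Their Ly6c2 level was 569, 1036 and 1117 CPM, against 1898, 3333 and 2030 CPM. Among cells with Fn1 or Vcan alone, Clec9a was found in 0%, 1.19% and 3.33%, F13a1 in 95.2%, 96.4% and 98.3%, and Chil3 in 70.6%, 71.4% and 71.7%. F13a1 was held by 38.5%, 63.6% and 50% of the cells with Cx3cr1 or Ace alone, and by 95.7%, 100% and 97.4% of the cells with both pairs. B-lineage cells held Clec9a in 0.287%, 0.321% and 0.233% without drawing down. The small subset with Cx3cr1 or Ace alone is therefore described by its genes and given no cell type name.

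Many of the monocytes were in cycle by transcript. Top2a, a topoisomerase of dividing cells, or Mki67, the gene of the Ki-67 antigen, had UMIs in 55.9%, 58.9% and 55.2% of monocytes drawn down to 5000 UMIs, and 56.9%, 61.7% and 54.4% averaged over every draw. The 95% intervals of the drawn shares overlapped (48.8 to 62.8, 50.5 to 67.0 and 46.4 to 63.8). Both genes are also on in B-lineage precursors here (Mki67 in 37.5%, 31.0% and 30.6% of B-lineage cells, undrawn), so that class gives no free-RNA level for them. By subset, cycling transcripts were found in 59.5%, 59.5% and 65.0% of cells with Fn1 or Vcan alone, in 31.9%, 36.8% and 42.1% of cells with both pairs, in 88.9%, 68.8% and 66.7% of cells with neither, and in 61.5%, 63.6% and 25% of the 13, 11 and 12 cells with Cx3cr1 or Ace alone. Lists of 18 S-phase and 18 G2/M genes had median log2 ratios of 0.13 and 0.14 in IR over Control and of -0.02 and -0.14 in IR+CBD over IR, with none past 1.5-fold. Prtn3, 1 of the progenitor genes, had UMIs in 81.7%, 85.7% and 71.7% of the drawn cells with Fn1 or Vcan alone. Elane, another, had UMIs in 38.1%, 39.3% and 30.0% of them. Whether part of these UMIs is free RNA was not tested. The name monocyte thus follows the rule and does not set these cells apart from monocyte progenitors.

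Across all genes, most levels were close between libraries. With at least 100 UMIs in the 2 libraries, 7109 genes were measured in IR over Control, of which 222 (3.12%) were higher and 165 (2.32%) lower by 1.5-fold or more. In IR+CBD over IR, 6465 genes were measured, of which 141 (2.18%) were higher and 184 (2.85%) lower. The median log2 ratio over all measured genes was 0.02 and -0.002. By direction alone, 3841 of 7109 genes were higher in IR than in Control, and 3253 of 6465 were lower in IR+CBD than in IR. These percentages and counts are the background against which each gene group below is read.

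Genes at the ends of that ranking fell into those that many monocytes shared and those that 1 cell carried. Hbb-bs, the adult beta-globin, stood at 19.3, 151 and 13.7 CPM, and 1 IR cell held 96.0% of its IR UMIs. Pf4, platelet factor 4, had 103, 2 and 1 UMIs, with 96.1% of the Control UMIs in 1 cell. Car1 and Ebf1 were highest in IR+CBD, with 43.5% and 51.7% of their UMIs there in 1 cell each, and Hba-a1, Hba-a2 and Hbb-bt (highest in IR) had 81.8%, 87.3% and 87.4% of their IR UMIs in 1 cell. Retnlg, a neutrophil gene, stood at 183, 457 and 13.3 CPM, with 43.0% and 37.3% of its UMIs in 1 cell of Control and IR. In B-lineage cells it stood at 319, 355 and 452 CPM. Aff3 (137, 68.4 and 159 CPM) and 2610307P16Rik (48.6, 12.5 and 44.1 CPM) were detected in more B-lineage cells than monocytes. The paralogous globin genes share reads, so their single values are uncertain.

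Among the 10 genes lowest in IR over Control by the bound of their interval were several with no list in common. Apoe, the lipid carrier apolipoprotein E, stood at 210, 43.8 and 125 CPM, a ratio of 0.208 in IR over Control (0.171 to 0.253) and 2.86 in IR+CBD over IR (2.30 to 3.57). Over the alternative settings the first ratio ranged from 0.151 to 0.719 and the second from 1.06 to 4.11, the weakest of both without the Ccr2 requirement, where neither passed 1.5-fold. Hpgd, which inactivates prostaglandins, stood at 29.9, 4.27 and 8.06 CPM, and Ptgs2, the inducible cyclooxygenase that makes their precursor, at 27.8, 5.70 and 19.9 CPM. Nrg1, the ERBB ligand neuregulin-1, stood at 112, 32.4 and 16.6 CPM, found in 49.0%, 27.2% and 11.7% of monocytes against 3.73%, 1.58% and 1.17% of B-lineage cells. For Nrg1 the IR+CBD library was the lowest, at 0.512 of IR (0.336 to 0.764). Angpt1, the TIE2 ligand angiopoietin-1 (31.6, 5.34 and 8.53 CPM), and Adgrl4, an adhesion receptor best known from endothelium (44.2, 6.76 and 23.2 CPM), were lower in IR too, with 22.2% and 25.2% of the Control UMIs in 1 cell.

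Of the 222 genes higher by 1.5-fold in IR than in Control, 34 were in the list of interferon response genes, and several of them were among the 10 highest by the bound of their interval. Type I interferon signals through IFNAR1 and IFNAR2 to a transcription factor complex that holds IRF9 and binds the interferon-stimulated response element and turns on genes of antiviral defence. Ifi27l2a, a small mitochondrial interferon-inducible protein, measured 552 CPM in Control, 2457 CPM in IR and 639 CPM in IR+CBD. IR was 4.45 times Control (4.23 to 4.68), IR+CBD was 0.260 of IR (0.245 to 0.276), and the Control and IR+CBD libraries were close at 1.16 (1.08 to 1.24). Isg15, a ubiquitin-like modifier, stood at 27.5, 105 and 28.4 CPM, and Irf7, the transcription factor that amplifies the response, at 23.999, 96.5 and 26.5 CPM. The oligoadenylate synthetases, which sense double-stranded RNA, had the same order: Oas1a 10.8, 50.6 and 8.06 CPM, Oas3 10.5, 45.9 and 8.53 CPM, and the related Oasl2 11.7, 67.3 and 8.53 CPM. Rtp4 (12.9, 55.5 and 5.69 CPM) and Ifi213 (6.44, 37.7 and 3.32 CPM) had the lowest ratios of IR+CBD over IR among them, 0.102 (0.0518 to 0.184) and 0.0879 (0.0345 to 0.188). Zbp1, a sensor of Z-form nucleic acid, stood at 61.5, 141 and 51.2 CPM, and Phf11b at 17.6, 65.9 and 16.6 CPM.

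Of 54 interferon response genes, 38 reached 100 UMIs in the IR and Control libraries together, and 38 in IR+CBD and IR. In IR over Control 34 of 38 were higher and 1 lower by 1.5-fold, against 3.12% and 2.32% of all genes, and the median log2 ratio was 1.12. In IR+CBD over IR 31 of 38 were lower and 1 higher by 1.5-fold, against 2.85% and 2.18%, with a median of -1.09. Because a low gene passes the UMI limit more easily where it is high, all 54 were also counted. The background counts beside them cover only genes that reached 100 UMIs, so the 2 sets are unlike. Of the 54 genes, 53 were higher in IR than in Control, against 3841 of the 7109 measured genes. Likewise 53 were lower in IR+CBD than in IR, against 3253 of the 6465 measured. The exception was Cxcl10, a chemokine (23.7, 14.2 and 36.0 CPM), with 51.9% of its Control UMIs in 1 cell. The summed level of the list was 2252, 6088 and 2413 CPM. Without the 82 cells with UMIs of other lineages, the medians were 1.11 and -1.06, and without predicted doublets 1.13 and -1.08.

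**Figure D2:**
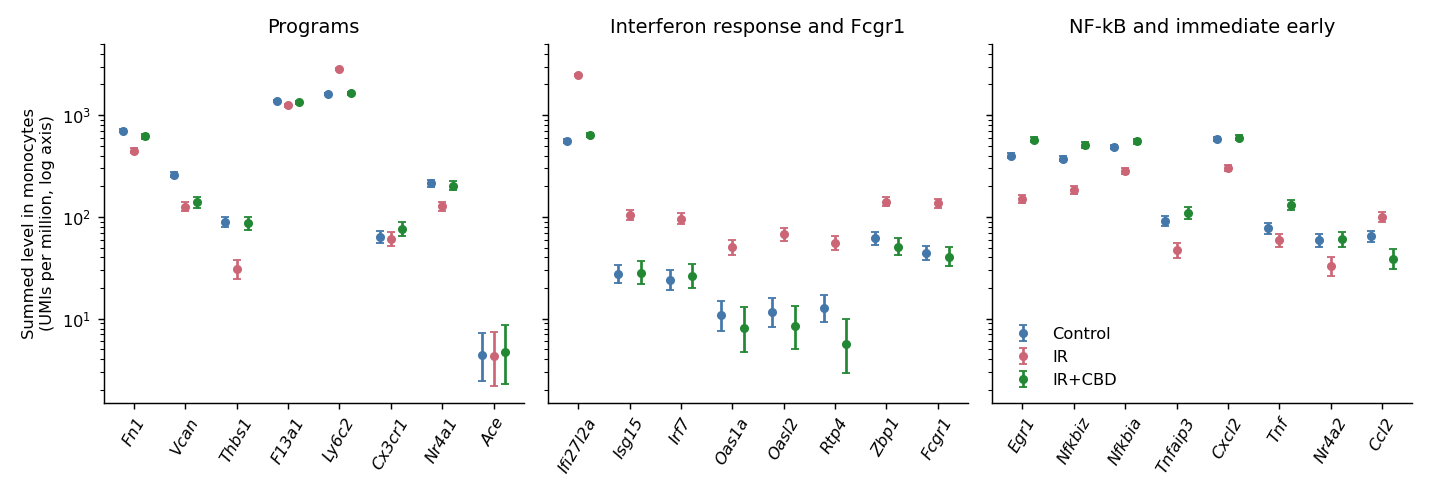
Summed level of 24 genes in the monocytes of each library, in CPM on a log axis. Points are library values and bars 95% Poisson intervals (counting error only). The IR point is the highest for all 8 genes of the middle panel, and the lowest for 7 of the 8 in the right panel, the exception being Ccl2.

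Irf9 and Stat2, which carry the signal to the nucleus, differed less in IR over Control than the targets named above. Irf9 stood at 46.5, 58.7 and 49.3 CPM, and Stat2 at 20.8, 27.1 and 17.5 CPM, and neither passed 1.5-fold in IR over Control. The receptor genes Ifnar1 (39.2, 26.3 and 31.3 CPM) and Ifnar2 (120, 127 and 123 CPM) did not pass 1.5-fold in IR over Control, with ratios of 0.672 (0.499 to 0.899) and 1.06 (0.916 to 1.22). A separate list of 14 interferon-inducible GTPases, which attack the vacuoles of intracellular microbes, summed to 96.6, 212 and 115 CPM. Counted without the UMI limit, 13 of 14 genes were higher in IR than in Control. By the same count 14 of 14 were lower in IR+CBD than in IR. Most of these genes had few UMIs: only 4 of the 14 reached the limit in IR over Control, all higher by 1.5-fold. In IR+CBD over IR 3 reached it, all lower, 2 of them by 1.5-fold. No share of all genes counted without the limit is given, so the counts over 14 genes have no background here. Irgm1 stood at 17.6, 51.6 and 21.8 CPM and Ifi47 at 23.4, 59.8 and 29.9 CPM.

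The difference was spread over the cells of each library rather than carried by a few. In monocytes drawn down to 5000 UMIs, the 54 genes together gave a median of 10 UMIs per cell in Control (quartiles 5.75 and 18), 30 UMIs in IR (20 and 48.5) and 13 UMIs in IR+CBD (7 and 18). The lower quartile of IR lay above the upper quartile of both other libraries. The lowest IR cell had 6 UMIs, while single Control and IR+CBD cells reached 134 and 123, so the extremes overlapped. Among the cells with Top2a or Mki67 (114, 86 and 74 cells) the medians were 8, 25 and 11.5, and among those without (90, 60 and 60 cells) they were 16, 39 and 15.5. IR was highest in both cycling and non-cycling cells, while Control and IR+CBD stood in a different order in each.

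**Figure D3:**
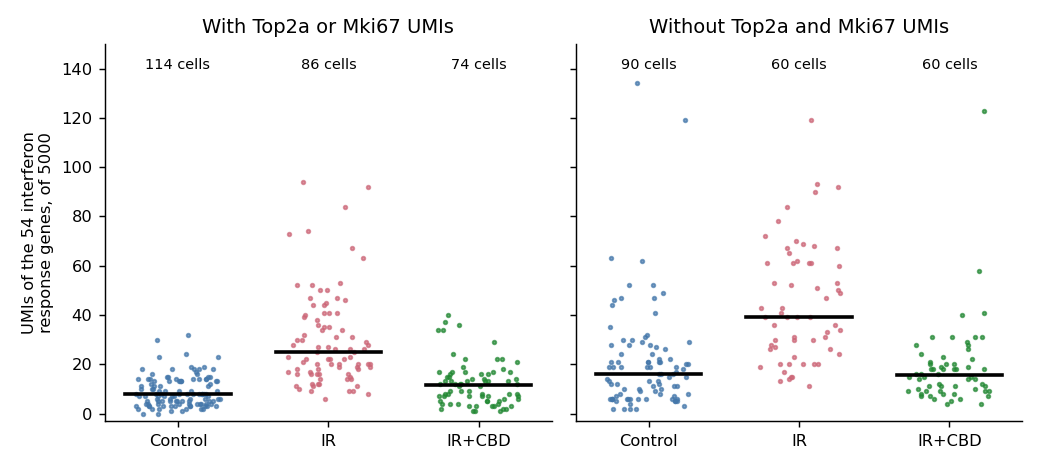
UMIs of the 54 interferon response genes in each monocyte after a draw of 5000 UMIs, by library, for those with Top2a or Mki67 UMIs (left) and those without (right). Points are cells and horizontal lines medians. The medians in Control, IR and IR+CBD are 8, 25 and 11.5 UMIs on the left and 16, 39 and 15.5 on the right, where the cells with the most UMIs reach 134, 119 and 123.

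The promoters of 4 of these genes are printed to show where letters of the interferon-stimulated response element stand, and that Fcgr1, described next, lacks them. The 250 bases before each start site were taken from RefSeq (build GRCm38.p6, which is not the build of the deposited counts) and run 5′ to 3′ toward the start site, which follows the last base. Capitals mark matches of GAAA, any 2 bases and GAAA again, searched on both strands, and neighbouring matches that overlap run together. All 4 genes lie on the minus strand.
Isg15 (chr4:156200819-156201068): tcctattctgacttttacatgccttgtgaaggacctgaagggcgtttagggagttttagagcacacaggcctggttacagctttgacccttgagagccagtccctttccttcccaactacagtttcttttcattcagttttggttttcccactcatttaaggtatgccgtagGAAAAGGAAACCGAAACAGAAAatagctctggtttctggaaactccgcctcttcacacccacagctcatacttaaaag
Oas1a (chr5:120907526-120907775): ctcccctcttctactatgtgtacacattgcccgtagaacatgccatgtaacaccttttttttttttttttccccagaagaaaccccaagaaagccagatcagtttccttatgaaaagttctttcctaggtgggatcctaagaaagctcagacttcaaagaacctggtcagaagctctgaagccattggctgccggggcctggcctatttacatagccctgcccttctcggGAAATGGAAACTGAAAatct
Phf11b (chr14:59341331-59341580): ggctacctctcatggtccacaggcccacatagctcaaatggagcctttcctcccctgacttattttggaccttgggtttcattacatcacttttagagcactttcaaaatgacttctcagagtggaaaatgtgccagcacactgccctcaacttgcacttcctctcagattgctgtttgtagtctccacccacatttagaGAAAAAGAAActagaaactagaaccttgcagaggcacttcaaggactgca
Fcgr1 (chr3:96293970-96294219): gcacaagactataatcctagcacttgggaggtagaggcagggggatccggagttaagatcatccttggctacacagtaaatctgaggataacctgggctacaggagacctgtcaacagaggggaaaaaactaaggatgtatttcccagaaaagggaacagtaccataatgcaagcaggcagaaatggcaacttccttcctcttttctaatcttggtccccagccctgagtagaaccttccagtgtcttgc
Isg15 has 3 overlapping matches that begin 78, 72 and 66 bases before the start site, Oas1a has 2 that begin 20 and 14 bases before it, Phf11b has 1 that begins 50 bases before it, and the Fcgr1 window has none. In windows of 300 bases (250 before to 50 after the start site), the letters were found in 3.99% of 27025 genes with a promoter in the table, in 4.14% of 5216 such genes measured in both comparisons of the monocytes, in 17 of the 28 interferon response genes among those (60.7%), and in 17 of the 67 that were 1.5-fold higher in IR than in Control and lower in IR+CBD than in IR (25.4%). The last 2 sets share genes, such as Isg15, Oas1a and Phf11b, so their shares are not separate results. Irf7, Oasl2, Lgals3bp, Ly6c2 and H2-K1 had no match. A match is a match of letters and not a shown binding site.

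Fcgr1, the high-affinity IgG receptor CD64 and a monocyte and macrophage marker, had the pattern of the interferon genes. Its level was 44.2 CPM in Control, 136 CPM in IR and 40.8 CPM in IR+CBD, from 151, 382 and 86 UMIs. It was detected in 35.7%, 78.9% and 34.3% of monocytes, against 0.430%, 0.717% and 0.292% of B-lineage cells, and in 16.7%, 43.2% and 14.9% after the draw to 5000 UMIs. Its ratio was 3.08 in IR over Control (2.54 to 3.74), 0.300 in IR+CBD over IR (0.234 to 0.380) and 0.922 in IR+CBD over Control (0.699 to 1.21). Without cells that held UMIs of other lineages the levels were 45.5, 155 and 48.1 CPM. The other phagocytic and Fc receptor genes gave no such order: 9 were measured, with a median log2 ratio of -0.08 in IR over Control, and only Fcgr1 was higher by 1.5-fold. Fcer1g, the signalling chain shared by activating Fc receptors, stood at 1642, 1578 and 1532 CPM, and Msr1, a scavenger receptor, was lower in IR (79.9, 36.7 and 47.4 CPM).

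Genes of MHC class I presentation were higher in IR as well, and less so in IR+CBD. Class I molecules (H2-K1 and H2-D1 with the light chain B2m) show peptides that the immunoproteasome (Psmb8, Psmb9) cuts and the TAP transporter (Tap1, Tap2) carries. H2-K1 stood at 354, 784 and 512 CPM, a ratio of 2.22 in IR over Control (2.06 to 2.38), 0.654 in IR+CBD over IR (0.607 to 0.703) and 1.45 in IR+CBD over Control (1.33 to 1.57). B2m stood at 1060, 1923 and 1388 CPM, H2-D1 at 815, 1374 and 972 CPM, and Tap1 at 55.9, 99.3 and 67.3 CPM. Nlrc5, the transactivator of class I genes, stood at 17.6, 34.2 and 18.5 CPM. Of 18 genes, 17 were measured: all 17 were higher in IR than in Control, 13 of them by 1.5-fold, with a median log2 ratio of 0.75. All 17 were lower in IR+CBD than in IR, 5 by 1.5-fold, with a median of -0.54, so IR+CBD stayed between the other libraries, whereas the interferon genes lay near Control. In IR+CBD over Control 15 of 15 measured class I genes were higher, with a median of 0.29, while the interferon list had a median of 0.04. H2-Q7 (14.9, 75.1 and 26.1 CPM) shares near-identical sequence with H2-Q6 and is uncertain. MHC class II genes, markers also of dendritic and B cells, were higher in IR than in Control in 7 of 8, 1 of them (H2-Eb1) by 1.5-fold, with a median log2 ratio of 0.25. Between IR+CBD and IR, 3 of 8 (H2-Ab1, H2-Eb1 and Cd74) were lower by 1.5-fold in IR+CBD, with a median of -0.30, and 36.3% of the IR UMIs of H2-Ab1 (97.5, 129 and 69.7 CPM) were in 1 cell.

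Immediate early genes, which switch on within minutes of a stimulus, had the opposite order. Egr1, a zinc finger transcription factor, measured 400 CPM in Control, 150 CPM in IR and 574 CPM in IR+CBD. IR was thus 0.375 of Control (0.336 to 0.419), and IR+CBD was 3.82 times IR (3.42 to 4.28) and 1.43 times Control (1.33 to 1.55). Fosb stood at 74.6, 47.0 and 93.9 CPM, and Nr4a2 at 58.8, 32.8 and 60.2 CPM. Zfp36, which destabilises cytokine transcripts, stood at 908, 585 and 748 CPM, and Junb at 901, 610 and 739 CPM. Fos itself hardly differed in size (1077, 994 and 921 CPM), and Jun was highest in IR+CBD (947, 856 and 1237 CPM). Of 17 measured genes, 16 were lower in IR than in Control, 6 by 1.5-fold, with a median log2 ratio of -0.41. In IR+CBD over IR 16 of 17 were higher, 5 by 1.5-fold, with a median of 0.36. The exceptions were Klf6 in the first comparison and Fos in the second.

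Targets and inhibitors of NF-kB moved with the immediate early genes. Nfkbia, which encodes the inhibitor that NF-kB itself induces, stood at 487, 282 and 554 CPM. Nfkbiz, a nuclear cofactor for secondary inflammatory genes, stood at 373, 184 and 509 CPM, a ratio of 0.492 (0.443 to 0.545) and then 2.77 (2.49 to 3.08). Tnfaip3, the A20 deubiquitinase, stood at 91.0, 47.0 and 110 CPM, and Cxcl2, a neutrophil chemokine, at 579, 299 and 603 CPM. Tnf stood at 77.6, 58.7 and 131 CPM, with IR+CBD above Control at 1.69 (1.43 to 2.01). Ccl2, the ligand of CCR2, went the other way: its levels of 64.4, 100 and 38.9 CPM put IR at 1.55 times Control (1.30 to 1.86) and IR+CBD at 0.389 of IR (0.300 to 0.499). The first Ccl2 ratio ranged from 1.10 to 1.71 over the alternative settings and so did not always pass 1.5-fold. Of 20 measured genes 8 were lower and 1 higher by 1.5-fold in IR over Control (median log2 ratio -0.39), and of 18 in IR+CBD over IR 9 were higher and 1 lower (median 0.69). Summed levels of the list were 3579, 2515 and 3827 CPM.

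Receptors that sense microbes had part of this order. Clec4e, the Mincle receptor for mycobacterial and fungal glycolipids, stood at 241, 120 and 178 CPM, with IR at 0.497 of Control (0.436 to 0.564) and IR+CBD 1.49 times IR (1.28 to 1.73). Tlr2, a sensor of bacterial lipoproteins, stood at 79.6, 39.9 and 68.7 CPM, and Clec4d, the partner of Clec4e, at 47.7, 28.5 and 28.4 CPM. Of 9 measured genes, 7 were lower in IR than in Control, 3 by 1.5-fold, with a median log2 ratio of -0.32.

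**Figure D4:**
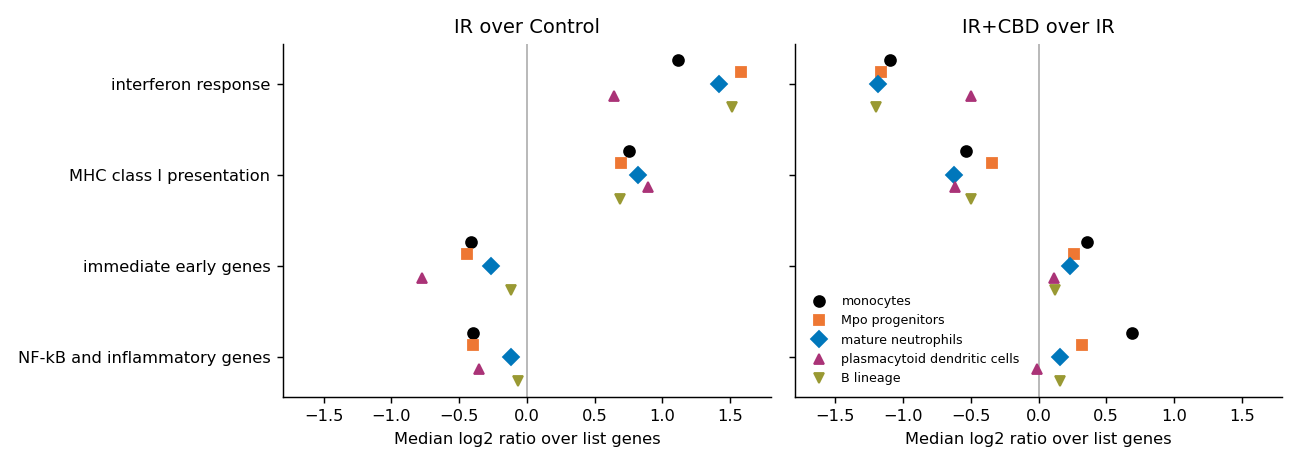
Median log2 ratio over the measured genes of 4 lists, for IR over Control (left) and IR+CBD over IR (right), in monocytes and in 4 other classes of kept cells. Symbols are medians of 1 library over another, and have no error bar. All 5 classes lie above 0 for the interferon and MHC class I lists on the left and below 0 on the right, and the monocyte point for NF-kB genes on the right, 0.69, is the farthest from 0 in its row.

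The interferon order was seen in the other classes of marrow cells as well. The list had a median log2 ratio in IR over Control of 1.12 in monocytes, 1.58 in Mpo-positive progenitors, 1.42 in mature neutrophils (Retnlg and Cxcr2 without Csf1r), 0.65 in plasmacytoid dendritic cells (Siglech and Tcf4) and 1.51 in B-lineage cells (Ebf1 and Cd79a). Each class has its own set of measured genes, so these medians are set side by side without a test. Ifi27l2a was 4.45 times higher in IR than in Control in monocytes, against 6.15, 8.91, 4.75 and 7.77 times in the other 4 classes in that order. The order of Ly6c2 was shared by Mpo-positive progenitors (1.32), neutrophils (1.23) and plasmacytoid dendritic cells (2.30), but its ratio was 0.909 in B-lineage cells. Fcgr1 reached at most 8.34 CPM in the other classes, in Mpo-positive progenitors of IR (3.84, 8.34 and 3.51 CPM). The lower Fn1 and Vcan levels of IR were not particular to monocytes. In Mpo-positive progenitors IR was at 0.347 (Fn1) and 0.316 (Vcan) of Control, against 0.635 and 0.484 in monocytes. In the same progenitors IR+CBD was at 0.470 and 0.328 of Control.

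For the NF-kB and immediate early lists the monocyte medians in IR+CBD over IR were the farthest from 0 of the 5 classes. In that comparison the NF-kB list had a median of 0.69 in monocytes, 0.32 in progenitors, 0.16 in neutrophils, -0.01 in plasmacytoid dendritic cells and 0.16 in B-lineage cells. Egr1 was 3.82 times higher in monocytes, 2.13 times in progenitors, 1.36 times in neutrophils, 0.582 times in plasmacytoid dendritic cells and 1.16 times in B-lineage cells. Nfkbiz was 2.77, 1.69, 1.21, 1.60 and 1.09 times higher in the same order. Cxcl2 did not follow this, at 2.01 times in monocytes and 2.24 times in progenitors, then 1.43, 0.293 and 1.68 times in the other classes. For plasmacytoid dendritic cells the NF-kB median rests on 6 genes, and Cxcl2 on 9 UMIs in IR+CBD and 21 in IR. Egr1 had 23 and 27 UMIs there, and the interval of its ratio (0.319 to 1.05) includes 1. In IR over Control the monocyte medians were not the farthest from 0. The NF-kB medians there were -0.39 in monocytes and -0.40, -0.12, -0.36 and -0.06 in the other 4 classes in that order. The immediate early medians were -0.41 in monocytes and -0.45, -0.26, -0.77 and -0.12 in the others. Whether these classes differ was not tested, since each value of a comparison comes from the same pair of libraries.

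Several groups differed little between the libraries. Of 17 lysosomal genes none passed 1.5-fold in either comparison (median log2 ratios 0.04 and -0.08), and none of 6 subunits of the NADPH oxidase did (-0.05 and -0.14). Among 14 transcription factors of the lineage only Nr4a1 passed in IR over Control, lower in IR, and Klf4 (217, 234 and 203 CPM) did not. In IR+CBD over IR 1 of 14 was higher by 1.5-fold (Nr4a1) and 1 lower, against 2.18% and 2.85% of all measured genes. Of 13 p53 targets, 1 was higher by 1.5-fold in IR: Bbc3, which encodes the death-promoting protein PUMA (19.6, 30.3 and 31.8 CPM), while Cdkn1a, the cell cycle inhibitor p21, stood at 271, 199 and 205 CPM. Of 17 cytokine receptors, only Tgfbr2 passed in IR over Control (31.3, 20.3 and 38.9 CPM), and Tgfbr2 and Il4ra did in IR+CBD over IR. Among 18 antioxidant genes, Hmox1 was lower by 1.5-fold in IR over Control and Keap1 in IR+CBD over IR, and the medians were -0.02 and 0.03.

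IR+CBD over Control had the smallest percentages of genes past the fold. Of 6786 measured genes, 133 (1.96%) were higher and 125 (1.84%) lower by 1.5-fold in IR+CBD than in Control. Of 29 measured interferon response genes, 2 were higher (Bst2 and Cxcl10) and 1 lower (Slfn8) by that size. Bst2, tetherin, stood at 153, 354 and 245 CPM (1.59 times Control, 1.41 to 1.805). Rtp4, at 0.442 of Control (0.212 to 0.851), had too few UMIs in IR+CBD and Control to be among the genes counted. Vcan (0.532 of Control, 0.465 to 0.608) and Nrg1 (0.148, 0.102 to 0.209) in IR+CBD lay near or below IR, whereas Fn1, Thbs1, Fcgr1 and Ly6c2 lay nearer to Control than to IR.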

How the data were processed

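The values are UMI counts per gene and cell, 1 matrix for each of the 3 libraries (10x Genomics 3′ V2 chemistry), which the authors made with Cell Ranger and deposited without normalisation. The submitters' processing notes and the study's methods name Cell Ranger 4.0 while the matrix headers name 7.0.1, and the notes name build GRCm39. The study removed doublets in its own analysis, and all deposited barcodes (36035 in all) are used here, with doublets kept unless said otherwise.

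Cells with 200 or more genes and at most 5% mitochondrial UMIs were kept, and monocytes were taken by the rule given in the report. Their UMIs were summed per library (Python 3.11.15, pandas 2.3.3, numpy 2.4.6, scipy 1.17.1) and given as CPM with exact Poisson intervals, ratios with exact conditional binomial intervals, shares with Clopper-Pearson intervals and ratios of shares with log-normal intervals, all at 95% and for counting error only. With 1 library of 3 pooled mice per group no test was made. A gene was measured in a comparison with 100 or more UMIs in the 2 libraries and counted at a ratio of 1.5 or more, or its inverse or less. Log2 ratios used a pseudocount of 0.5 UMI. Some shares used cells drawn down to 5000 UMIs. Genes named are, for IR over Control and for IR+CBD over IR, 10 in each direction whose interval stayed farthest from a ratio of 1, the 25 with the highest ratio of monocytes over other kept cells among those with 1000 or more UMIs, the genes of the rule, and genes of the marker and gene lists (31 lists), of which those with the most UMIs and the largest differences are named. The rule, the members and the lists were chosen with earlier results of these data known. Library totals were 199383228, 206932522 and 177806843 UMIs in Control, IR and IR+CBD. The scripts were tested on simulated counts, and 20 alternative settings were tried, among them predicted doublets removed (Scrublet in scanpy 1.11.5), other limits of the rule, other UMI minimums, and the mean of each cell's CPM. Promoter sequences are from RefSeq, build GRCm38.p6, matched by symbol. Values of some genes are not reported here.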

Additional observations from a re-analysis of the deposited data

How the results depend on the processing

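No paired analysis was possible because each condition is 1 library, and for the same reason no replicate could be left out. Under every setting the ratios of the monocyte share of kept cells stayed below 1 in both comparisons (not so with cells holding a Csf1r UMI as the denominator, given in the report), and the medians of the interferon, MHC class I, NF-kB and immediate early lists kept their sign. Without the limits on Mpo and Siglech (1340, 1234 and 904 cells), the monocyte share was 0.9502 in IR over Control and 0.738 in IR+CBD over IR, the Fn1 or Vcan share ratio was 0.559 and 1.29, genes past 1.5-fold in IR over Control were 352 higher and 413 lower, genes higher in IR+CBD than in IR were 250, and the median of the interferon list was 1.39 in IR over Control and that of MHC class I was -0.33 in IR+CBD over IR. Without the Ccr2 requirement the Fn1 or Vcan share ratio in IR+CBD over IR was 1.21. The Cx3cr1 or Ace share ratio in IR over Control, 0.699, became 1.03 with a mitochondrial limit of 10%, 1.06 without shared barcodes and 1.04 undrawn, and in IR+CBD over IR, 1.82, it became 1.21 without cells holding UMIs of other lineages and 1.07 undrawn. Which part of these differences comes from the random draw and which from the cells added or left out was not tested. With a minimum of 50 UMIs, IR over Control gave 418 higher and 379 lower genes and IR+CBD over IR 322 and 330, and with 200 UMIs 105 and 80, and 52 and 69, since the number of genes measured differs. The cause of the other differences was not tested. With the mean of each cell's CPM, 228 genes were higher in IR+CBD than in IR. With 2 UMIs of Csf1r and Ccr2 required, the median of the Cx3cr1/Ace list was -0.46 in IR over Control. Hbb-bs was 0.149 in IR over Control with predicted doublets removed and 0.253 with 2 UMIs of Csf1r and Ccr2. In IR+CBD over IR it was 2.09 and 2.84 under the same settings, 2.05 without the Mpo and Siglech limits, and 1.10 without its highest cell. Pf4 in IR over Control was 2.47 without cells holding UMIs of other lineages, from few UMIs. With each gene's highest cell left out, a setting chosen after seeing the data, as was the mean over every draw, 186 genes were higher and 165 lower in IR over Control, and 135 and 183 in IR+CBD over IR. Over all settings the interferon median ranged from 0.99 to 1.39 and from -1.13 to -1.01, the NF-kB median from -0.55 to -0.37 and from 0.42 to 0.87, Fcgr1 from 2.53 to 3.41 and from 0.294 to 0.409, and Fn1 from 0.522 to 0.644 and from 1.33 to 1.63.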

Other observations

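Some genes stood apart in IR+CBD against Control and were chosen after their values were seen. Mt1, a metal-binding metallothionein, had 184, 251 and 408 CPM in Control, IR and IR+CBD (IR+CBD 2.22 times Control, 95% interval 2.002 to 2.47), and Mt2 had 13.8, 42.0 and 57.8 CPM, with 38.3%, 36.4% and 32.8% of its UMIs in 1 cell of each library. Ccnd1, cyclin D1, had 15.8, 32.0 and 46.9 CPM (2.97 times, 2.11 to 4.22), Srm, which makes spermidine, 34.5, 58.4 and 73.9 CPM, and Tfrc, the transferrin receptor, 22.2, 35.2 and 51.2 CPM. Socs3, an inhibitor of cytokine signalling, had 59.998, 24.6 and 18.5 CPM (0.308 of Control, 0.213 to 0.436). S100a8 had 4621, 2565 and 1297 CPM, and 48.8% of its IR+CBD UMIs were in 1 cell. B-lineage cells, which should lack S100a8, had 4237, 3540 and 5185 CPM. The S100a8 levels of the monocytes thus do not stand clear of free RNA.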
